A study of Mus musculus with 6 samples.

Results

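The genes described here are 8 genes of the follicular helper T cell program and of the balance between its main factor and that factor's antagonist, namely *Bcl6*, *Prdm1*, *Cxcr5*, *Il21*, *Sh2d1a*, *Ascl2*, *Slamf1* and *P2rx7*. They were picked by symbol, and all 8 were found among the 35602 genes of a count table and again among the 34714 genes of a pair of single-library tables. The study asked how inhibition of Mapk13, a p38 kinase, alters gene expression in activated mouse CD4+ T cells, with 3 RNA-seq libraries per group. Cells from the spleen were activated through CD3 and CD28 and cultured with MAPK13-IN-1, a kinase inhibitor, or with its solvent DMSO, and were collected after 72 h. For replicates 2 and 3 the mice are labelled wild type, and the labels give 17.1 μM inhibitor for the treated cultures and 0.1 μl DMSO for the control cultures, in each case added after day 1 of culture. The series' design text instead has the inhibitor present during the 72 h, and for the replicate 1 pair the labels give neither dose nor genotype.

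Follicular helper T cells are the CD4+ T cells that enter B cell follicles and help B cells through germinal centre reactions. Their fate depends on the transcriptional repressor Bcl6, which is opposed by Blimp-1, the repressor encoded by *Prdm1*, and each of these factors represses the gene of the other. Signals from interleukin 6 and interleukin 21 through Stat3 favour *Bcl6*, whereas interleukin 2 acting through Stat5 favours *Prdm1*, and both repressors also act in B cells and plasma cells.

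The count table held 26874805 and 28487403 counts for DMSO replicates 2 and 3, and 33854760 and 32617702 counts for MAPK13-IN-1 replicates 2 and 3. Levels are given as counts, as CPM (counts relative to library totals scaled by the TMM method of edgeR) or as RPKM (the same CPM divided by the gene's exon length in kilobases). The replicate 1 pair came from a different library preparation and carries values read here as FPKM, a unit inferred from the values, with unknown depth. It entered no test, and its log2 ratios are of FPKM + 1, which understates changes of genes with low values. The 4 libraries of the count table were compared by edgeR's quasi-likelihood test, 2 against 2, with Benjamini-Hochberg adjustment over 16269 genes and a threshold of 0.05 on the adjusted p. The spread within groups exceeded sampling noise, with a mean chi-square per gene of 2.98 in DMSO and 9.66 with the inhibitor. Nothing states that they were separate cultures, so the p-values measure only the spread between these libraries, which may be technical.

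All 8 genes passed the filter on low counts. Of these, 5 changed at an adjusted p under 0.05, beside 63.8% of all genes tested. *Cxcr5* was the 1 gene that rose, beside 31.5% of all genes. *Il21*, *Sh2d1a*, *Slamf1* and *P2rx7* fell, beside 32.3% of all genes. A count of 5 in 8 is close to the share in the whole table, so the number of calls does not set these genes apart. Their median log2 fold change was −0.21, against 0.01 for all genes tested, and it was −0.46 without MAPK13-IN-1 replicate 3, −0.14 without MAPK13-IN-1 replicate 2 and −0.08 under library totals. In the replicate 1 pair 7 of the 8 genes were higher with the inhibitor, if *P2rx7* at a log2 ratio of 0.00207 and *Ascl2* at 0.02 are counted, and the median log2 ratio was 0.52, while 60.2% of 15825 genes were higher and the median over those genes was 0.07. Of the 5 genes called, 2 had the same direction in the replicate 1 pair, *Cxcr5* and *Sh2d1a*, and over all genes called 65.9% did. The pair differed from the count table in preparation, in the unit of its values and in marker levels, and its dose is not labelled. In DMSO, the B cell gene *Cd79b* was at 128 and 132 RPKM in the count table and 16.4 FPKM in the pair. The T cell gene *Lck* was at 118 and 124 RPKM and 182 FPKM. The part of each of these in the differing directions was not tested.

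**Figure D1:**
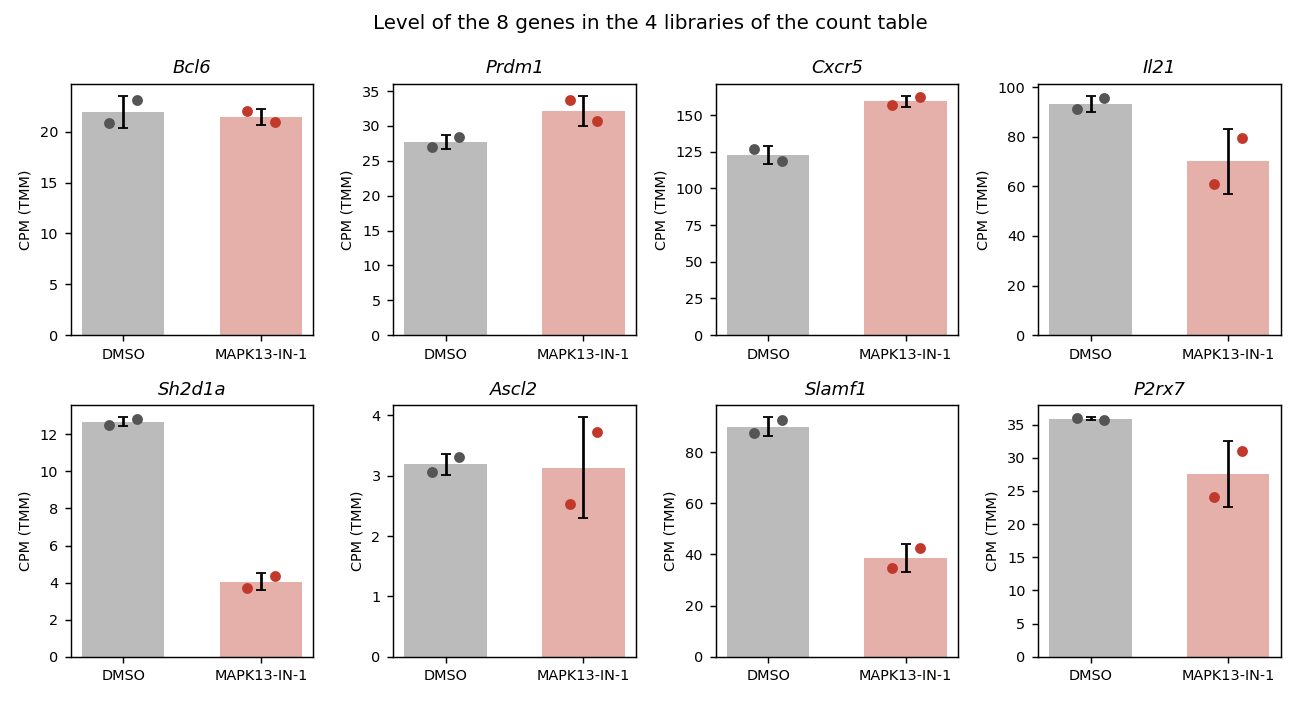
Level of each of the 8 genes in CPM (y axis, from 0) in the 2 DMSO and the 2 MAPK13-IN-1 libraries of the count table. Points are libraries, bars are group means and error bars are SD (n = 2). *Sh2d1a* and *Slamf1* were lower in both inhibitor libraries by more than the spread between replicates, and *Bcl6* and *Ascl2* overlapped between groups.

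*Bcl6*, the repressor that directs the follicular helper fate, was counted 538 and 628 times with DMSO and 781 and 709 times with MAPK13-IN-1. In CPM these were 20.9 and 23.1 with DMSO, and 22.0 and 20.9 with the inhibitor. The groups overlapped, both inhibitor libraries lying between the DMSO libraries or next to the lower of them. The means were 22.0 ± 1.58 and 21.5 ± 0.765 CPM (SD, n = 2 each), and edgeR gave a log2 fold change of −0.03 with a standard error of 0.0992 and an adjusted p of 0.777. The sign of this value depended on the scaling, and it was 0.09 under scaling by library totals. That scaling moved the median of all genes from 0.01 to 0.14, so *Bcl6* was below the median gene under either. The single libraries of replicate 1 held *Bcl6* at 1.39 FPKM (DMSO) and 2.92 FPKM (inhibitor).

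*Prdm1*, which encodes Blimp-1, had 695 and 771 counts with DMSO and 1197 and 1040 counts with MAPK13-IN-1. Scaled for depth, the DMSO libraries were at 27.0 and 28.4 CPM and the inhibitor libraries at 33.7 and 30.7 CPM. Both inhibitor libraries were thus above both DMSO libraries, by a margin that did not pass the test. edgeR gave a log2 fold change of 0.22 with a standard error of 0.0901 and an adjusted p of 0.0526. Across the alternative settings the adjusted p ran from 0.00446 to 0.331, and the gene passed without MAPK13-IN-1 replicate 3 (log2 fold change 0.28, adjusted p = 0.00446 from edgeR). It did not pass without DMSO replicate 2 (0.17), DMSO replicate 3 (0.25) or MAPK13-IN-1 replicate 2 (0.15), with adjusted p of 0.331, 0.151 and 0.154 from edgeR. The gene also passed under each other scaling tried, with 0.35 for library totals (adjusted p = 0.00646 from edgeR). With the replicate block (0.22, adjusted p = 0.0479 from edgeR) and at least 10 counts in every library (0.27, adjusted p = 0.0229 from edgeR) it passed as well. It did not pass with DESeq2 (log2 fold change 0.23, adjusted p = 0.15) or without any filter (0.22, adjusted p = 0.069 from edgeR). Replicate 1 had 3.85 FPKM (DMSO) and 8.62 FPKM (inhibitor).

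The balance of both repressors was taken within each library as the log2 ratio of *Bcl6* to *Prdm1* counts, which does not depend on scaling between libraries. The ratio was −0.37 and −0.30 in the DMSO libraries and −0.62 and −0.55 in the MAPK13-IN-1 libraries. Both treated libraries were below both controls, and the difference of −0.25 exceeded the SDs of 0.0519 and 0.0448 within the groups. The ratio was not tested, and SDs from 2 libraries can understate the spread. Neither gene passed the test by itself. The difference stayed between −0.29 and −0.21 when each library was left out in turn. Divided by exon length, *Bcl6* was at 3.28 ± 0.235 RPKM and *Prdm1* at 4.96 ± 0.177 RPKM in DMSO, so *Prdm1* was the higher in level, and with the inhibitor the levels were 3.20 ± 0.114 and 5.77 ± 0.385 RPKM (SD, n = 2). Both genes were higher with the inhibitor in the replicate 1 pair, and the log2 ratio of their FPKM was −1.47 with DMSO and −1.56 with the inhibitor. The shift there had the same sign and was smaller, with no replicate to judge it by.

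*Ascl2*, a basic helix-loop-helix factor that can induce *Cxcr5*, was the gene with the fewest counts, at 79 and 90 with DMSO and 90 and 126 with MAPK13-IN-1. In CPM the values were 3.06 and 3.31 with DMSO, and 2.54 and 3.72 with the inhibitor. The inhibitor libraries lay on either side of the DMSO libraries. edgeR gave a log2 fold change of −0.03 with a standard error of 0.232 and an adjusted p of 0.918. Its sign changed with the scaling and with the library left out, from −0.34 without MAPK13-IN-1 replicate 3 to 0.22 without MAPK13-IN-1 replicate 2. At 0.0382 and 0.0538 FPKM the gene was near 0 in the replicate 1 pair.

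*Cxcr5*, the chemokine receptor that draws T cells and B cells into follicles, had 3277 and 3223 counts with DMSO and 5566 and 5497 counts with MAPK13-IN-1. Its CPM were 127 and 119 in the DMSO libraries and 157 and 162 in the inhibitor libraries. All inhibitor libraries were above all DMSO libraries. The means of 123 ± 6.06 and 160 ± 3.82 CPM (SD, n = 2 each) differed by a log2 fold change of 0.38 in edgeR, with a standard error of 0.0612 and an adjusted p of 0.000334. The replicate 1 pair moved the same way, from 7.88 to 10.3 FPKM. On the opposite strand *Bcl9l* shares 110 exon bases with *Cxcr5*. *Bcl9l*, named for this overlap, had 1812 and 1869 counts with DMSO and 3107 and 3183 with the inhibitor and also rose (log2 fold change 0.38, adjusted p = 0.00052 from edgeR). Whether the counting used strand is not given in the sources used here, so reads from the shared bases cannot be told apart, and their part in the rise of *Cxcr5* was not tested.

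*Cxcr5*, *Bcl6*, *Prdm1* and *Slamf1* are also expressed by B lineage cells, whose transcripts were abundant in the count table although the cells are labelled CD4+ T cells and were purified with a CD4 T cell kit. Of 12 B cell markers listed, 10 were matched (not *Ighm* and *Ighd*) and tested, and 7 rose, 2 fell (beside 31.5% and 32.3% of all genes) and 1 did not pass, with 5 higher when either DMSO library was left out. Their summed level was 1142 and 1119 CPM in the DMSO libraries and 1311 and 1334 CPM in the MAPK13-IN-1 libraries. Per exon length the most abundant was *Cd79b*, a chain of the B cell receptor complex, at 128 and 132 RPKM with DMSO and 149 and 144 RPKM with the inhibitor, and all 10 matched markers had more than 3 counts in every library. The same list summed to 52.3 FPKM (DMSO) and 36.5 FPKM (inhibitor) in the replicate 1 pair. There 9 of the 10 were lower, while 60.2% of all genes were higher. The part of B cell transcripts in the values of *Cxcr5*, *Bcl6*, *Prdm1* and *Slamf1* was not tested, and in bulk RNA fewer cells of a type and less RNA per cell cannot be told apart.

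Most genes on the list of CD4 T cell markers moved the opposite way in the count table, whereas *Cd4* itself did not. Of 8 listed, 7 were matched (not *Trac*), and 6 fell and 0 rose (beside 32.3% and 31.5% of all genes). Their sum was 1664 and 1695 CPM with DMSO and 903 and 1025 CPM with MAPK13-IN-1, and the most abundant per exon length was *Lck*, the kinase of the T cell receptor, at 118 and 124 RPKM against 50.4 and 54.8 RPKM. *Cd4*, chosen after its values were seen, had 7084 and 7497 counts with DMSO and 9477 and 9594 with the inhibitor. It was the marker that did not pass (adjusted p = 0.993 from edgeR). In CPM it was level, at 275 and 276 with DMSO and 267 and 283 with the inhibitor. The list summed to 1024 and 934 FPKM in the replicate 1 pair, the most abundant gene being *Cd5*, an inhibitory surface receptor, at 262 and 193 FPKM. Relative to the summed B cell markers of the same library, *Cxcr5* was at 11.1% and 10.6% with DMSO and 12.0% and 12.2% with the inhibitor. Relative to the summed CD4 T cell markers it was at 7.64% and 6.99% with DMSO and 17.4% and 15.8% with the inhibitor. Set against either sum, *Cxcr5* was higher in both treated libraries, by more against the T cell markers than against the B cell markers. Against the B cell sum *Prdm1* overlapped, at 2.36% and 2.53% (DMSO) and 2.57% and 2.30% (inhibitor), and *Bcl6* was lower, at 1.83% and 2.06% (DMSO) and 1.68% and 1.57% (inhibitor). Against the T cell sum, which fell although *Cd4* did not, both were higher. *Prdm1* was at 1.62% and 1.67% (DMSO) and 3.73% and 2.99% (inhibitor), and *Bcl6* at 1.25% and 1.36% (DMSO) and 2.44% and 2.04% (inhibitor). In the replicate 1 pair *Cxcr5*, *Prdm1* and *Bcl6* were higher against either sum. Against the B cell sum there, *Bcl6* was at 2.66% (DMSO) and 8.0% (inhibitor) and *Prdm1* at 7.36% and 23.6%.

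Markers of other cell types were also present. The 6 germinal centre B cell markers summed to 61.5 and 59.6 CPM with DMSO and 49.7 and 61.4 CPM with MAPK13-IN-1. Of 4 tested 1 rose and 3 fell (beside 31.5% and 32.3% of all genes). Only 2 fell under RLE or upper-quartile scaling, without any filter, with at least 10 counts in every library or without DMSO replicate 3. Only 1 fell without DMSO replicate 2, without MAPK13-IN-1 replicate 2, under library totals or with DESeq2. The most abundant per exon length was *Mef2b*, a germinal centre transcription factor, at 15.3 and 17.0 RPKM with DMSO and 3.53 and 5.95 RPKM with the inhibitor, while *Gcsam* had 0 counts in all libraries and *Rgs13* had 0 and 0 counts with DMSO and 3 and 2 with the inhibitor. Plasma cell markers, which bear on *Prdm1*, were matched for 6 of 7 genes (not *Ighg1*). Of these 5 were tested, and 3 rose and 2 fell (beside 31.5% and 32.3% of all genes). Their sum did not move, at 260 and 248 CPM with DMSO and 248 and 261 CPM with the inhibitor. *Mzb1*, an endoplasmic reticulum protein of B cells and plasma cells, was the most abundant per exon length at 121 and 110 RPKM with DMSO and 156 and 162 RPKM with the inhibitor, and *Tnfrsf17*, the plasma cell survival receptor, had 0 to 2 counts. For replicate 1 the germinal centre list summed to 9.74 and 14.2 FPKM (DMSO and inhibitor), led by *S1pr2*, and the plasma cell list to 62.3 and 52.0 FPKM, led by *Xbp1*.

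Myeloid markers, which bear on *P2rx7*, were low. The 8 genes summed to 13.7 and 12.0 CPM with DMSO and 42.3 and 35.0 CPM with MAPK13-IN-1. Of 6 tested, 5 rose and 0 fell (beside 31.5% and 32.3% of all genes). *Cd68*, a lysosomal protein of macrophages, was the most abundant per exon length at 8.33 and 7.40 RPKM with DMSO and 22.6 and 19.9 RPKM with the inhibitor. At the floor of 3 counts in a group were *C1qa* (0 and 0 with DMSO, 11 and 0 with the inhibitor) and *Fcgr1* (0 and 2 with DMSO). CD8 and NK cell markers summed to 13.5 and 13.5 CPM with DMSO and 7.61 and 10.2 CPM with the inhibitor. Of 4 tested 2 fell and 0 rose (beside 32.3% and 31.5% of all genes), or 1 fell with DESeq2. The most abundant per exon length was *Cd8b1*, a chain of the CD8 coreceptor, at 5.88 and 5.65 RPKM with DMSO and 3.19 and 4.42 RPKM with the inhibitor, and *Ncr1* and *Klrb1c*, receptors of NK cells, had at most 2 counts in either DMSO library. For replicate 1 the myeloid list summed to 2.97 and 9.38 FPKM, led by *Cd68*, and the CD8 and NK list to 4.35 and 13.5 FPKM, led by *Cd8b1*. The part of these cells in the values of the 8 genes was not tested.

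*Il21*, the cytokine through which follicular helper T cells act on B cells and on themselves, had 2347 and 2601 counts with DMSO and 2161 and 2693 counts with MAPK13-IN-1. Scaled for depth the values were 91.0 and 95.6 CPM with DMSO and 60.9 and 79.5 CPM with the inhibitor. Both inhibitor libraries were below both DMSO libraries, and they lay further from each other than the DMSO libraries did. edgeR gave a log2 fold change of −0.41 with a standard error of 0.106 and an adjusted p of 0.00608. It was −0.23 without MAPK13-IN-1 replicate 2 and −0.62 without MAPK13-IN-1 replicate 3, past the threshold in both cases. Replicate 1 had *Il21* the opposite way, from 53.3 FPKM (DMSO) to 86.9 FPKM (inhibitor).

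*Slamf1*, a receptor of the signaling lymphocytic activation molecule (SLAM) family on T cells and B cells, had 2254 and 2516 counts with DMSO and 1236 and 1440 counts with MAPK13-IN-1. These were 87.4 and 92.5 CPM in the DMSO libraries and 34.8 and 42.5 CPM in the inhibitor libraries. The groups were far apart, the highest inhibitor library being under the lowest DMSO library. *Slamf1* thus fell, from a mean of 90.0 ± 3.61 to one of 38.7 ± 5.42 CPM (SD, n = 2 each), and edgeR put the log2 fold change at −1.22 with a standard error of 0.0931 and an adjusted p of 1.74e-06. Leaving out any 1 library gave −1.38 to −1.08. The replicate 1 pair again moved the opposite way, with 36.3 FPKM (DMSO) and 63.4 FPKM (inhibitor).

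*Sh2d1a* encodes SAP, the adaptor by which SLAM receptors signal and which T cells need for lasting contact with B cells. It had 322 and 349 counts with DMSO and 132 and 148 counts with MAPK13-IN-1. In CPM the DMSO libraries were at 12.5 and 12.8 and the inhibitor libraries at 3.72 and 4.37. All inhibitor libraries were below all DMSO libraries, and the level with DMSO was 3.13-fold that with the inhibitor. edgeR gave a log2 fold change of −1.65 with a standard error of 0.146 and an adjusted p of 4.72e-06, the largest in size among the 8 genes. The replicate 1 pair had the same direction, at 27.5 FPKM (DMSO) and 19.8 FPKM (inhibitor). *Sh2d1a* shares 1465 exon bases with *Tenm1* on the opposite strand, and *Tenm1*, named for this overlap, had 0 and 2 counts with DMSO and 0 and 3 counts with the inhibitor. Relative to the summed CD4 T cell markers of the same library, *Sh2d1a* was at 0.750% and 0.757% with DMSO and 0.412% and 0.426% with the inhibitor, and *Slamf1* was at 5.25% and 5.46% with DMSO and 3.86% and 4.15% with the inhibitor. Both genes were thus lower also against this sum, which fell as well. For *Slamf1* the log2 fold change of −1.22 was near the median of −1.20 over those markers, of which *Cd4* did not pass. For the other genes that fell the direction turned on this scale. *Il21* was at 5.47% and 5.64% (DMSO) and 6.74% and 7.75% (inhibitor), and *P2rx7* at 2.17% and 2.11% (DMSO) and 2.66% and 3.03% (inhibitor). These shares rest on a sum that fell more than either gene, and they do not give levels per T cell. *Cd4*, a gene in that sum, was level at 275 and 276 CPM with DMSO and 267 and 283 CPM with the inhibitor. In the replicate 1 pair *Slamf1* was higher against this sum, at 3.55% (DMSO) and 6.79% (inhibitor), and *Sh2d1a* was lower, at 2.68% and 2.12%.

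*P2rx7*, an ATP-gated channel that limits follicular helper T cell numbers by promoting their death, had 929 and 972 counts with DMSO and 854 and 1052 counts with MAPK13-IN-1. Its CPM were 36.0 and 35.7 with DMSO and 24.1 and 31.0 with the inhibitor. The DMSO libraries were nearly equal, and both inhibitor libraries were lower and apart from each other. edgeR gave a log2 fold change of −0.38 with a standard error of 0.115 and an adjusted p of 0.0139, or −0.58 without MAPK13-IN-1 replicate 3 and −0.21 without MAPK13-IN-1 replicate 2. The call was lost when libraries were scaled by their totals (log2 fold change −0.26, adjusted p = 0.065 from edgeR), within a range of adjusted p from 1.64e-09 to 0.065 over all alternatives. At replicate 1 *P2rx7* was at 13.5 FPKM in both libraries.

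Ordered by level per exon length in DMSO, the 8 genes ran from *Cxcr5* at 36.9 ± 1.82 RPKM through *Il21* at 17.7 ± 0.622, *Slamf1* at 14.6 ± 0.586, *P2rx7* at 6.01 ± 0.0338, *Prdm1* at 4.96 ± 0.177, *Bcl6* at 3.28 ± 0.235 and *Sh2d1a* at 2.30 ± 0.0444 to *Ascl2* at 1.96 ± 0.107 RPKM (SD, n = 2). With the inhibitor *Cxcr5*, at 47.9 ± 1.15 RPKM, and *Il21*, at 13.3 ± 2.50 RPKM, were still the highest. *Slamf1* at 6.28 ± 0.881, *Prdm1* at 5.77 ± 0.385 and *P2rx7* at 4.62 ± 0.827 RPKM followed. *Bcl6* was at 3.20 ± 0.114 and *Ascl2* at 1.93 ± 0.515 RPKM, and *Sh2d1a*, at 0.735 ± 0.0833 RPKM, was the lowest. The order in the replicate 1 pair was another, on the FPKM scale. With DMSO it was led by *Il21* at 53.3, *Slamf1* at 36.3 and *Sh2d1a* at 27.5 FPKM, whereas *Cxcr5* was at 7.88 FPKM, and the order of the 8 genes was the same with the inhibitor.

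**Figure D2:**
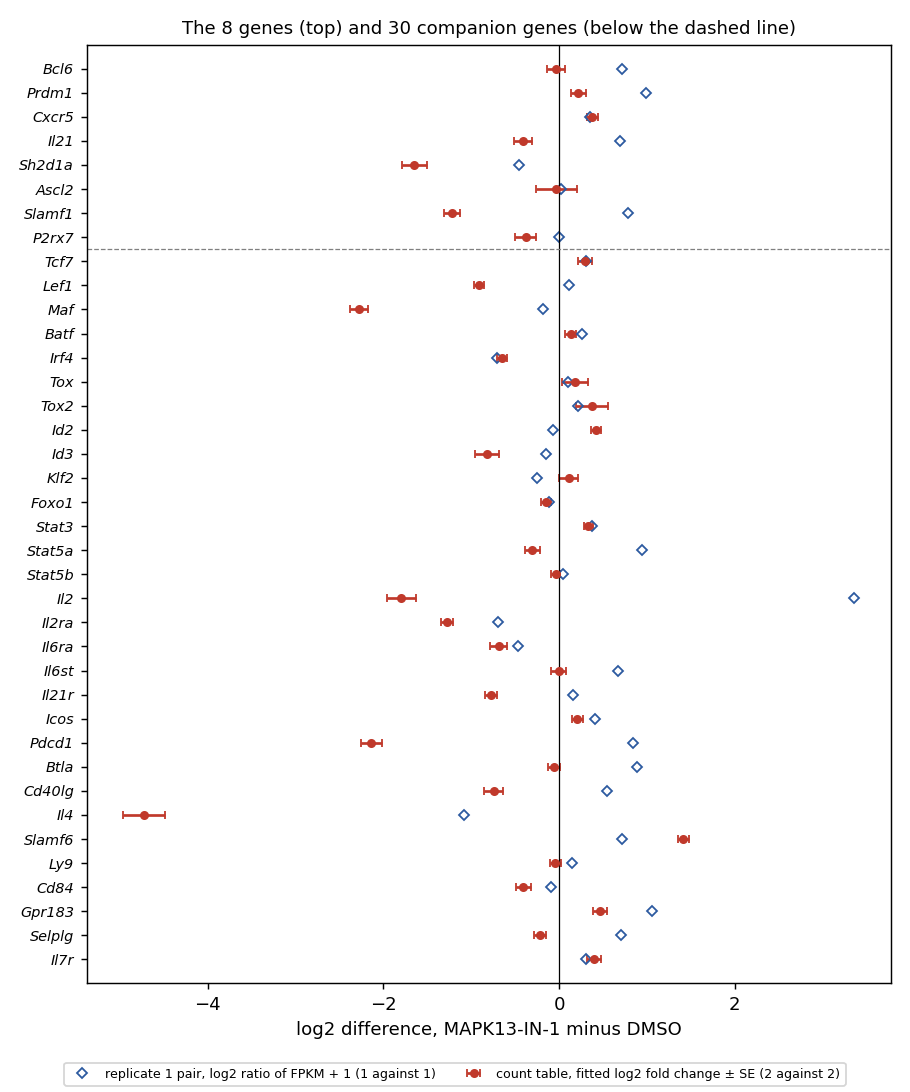
Log2 difference between MAPK13-IN-1 and DMSO (x axis) for the 8 genes and 30 companion genes. Filled circles are fitted log2 fold changes of the count table with their standard errors (2 libraries against 2), and open diamonds are log2 ratios of FPKM + 1 in the replicate 1 pair (1 against 1). *Il21* at −0.41 and 0.69 and *Slamf1* at −1.22 and 0.79 lay on opposite sides of 0.

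The wider program was read from lists of genes and from 30 companion genes given whatever their values, and none of these lists holds any of the 8 genes. Other genes named from these lists were chosen after their values were seen. Of 11 transcription factors tied to follicular helper differentiation, some of which restrain it, 3 rose and 5 fell (beside 31.5% and 32.3% of all genes), with a median log2 fold change of 0.13 against 0.01 for all genes, or 0.07 without DMSO replicate 2 and 0.26 under library totals. *Tcf7*, which encodes Tcf1, had 4084 and 4468 counts with DMSO and 6382 and 7280 with the inhibitor and rose (log2 fold change 0.29, adjusted p = 0.00855 from edgeR), by 0.15 without MAPK13-IN-1 replicate 3. *Stat3* (0.33) and *Bach2* (0.32) also rose. *Maf*, which drives *Il21* and *Il4*, had 940 and 1078 counts with DMSO and 281 and 264 with the inhibitor and fell, with a log2 fold change of −2.28 (adjusted p = 7.32e-08 from edgeR). *Lef1*, the partner of Tcf1, at −0.91, *Irf4* at −0.65, *Id3* at −0.82 and *Pou2af1* at −0.84 fell as well. *Batf* (0.13), *Tox* (0.18) and *Tox2* (0.38) did not pass, with adjusted p of 0.0819, 0.291 and 0.0899 from edgeR. Under library totals *Batf* (0.26) and *Tox2* (0.50) passed, with adjusted p of 0.00347 and 0.0304 from edgeR, and so they did under upper-quartile scaling, which made 5 of the 11 factors higher. With at least 10 counts in every library *Batf* (0.17) passed and *Tox2* (0.42) did not. *Batf* also passed without MAPK13-IN-1 replicate 2 (0.13) and without MAPK13-IN-1 replicate 3 (0.12).

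Among 11 factors opposed to the follicular helper fate, 4 rose and 4 fell, close to the shares of 31.5% and 32.3% of all genes, with a median of −0.04 whose sign changed with the scaling. The genes that rose were *Id2* (0.42), *Runx2* (0.65), *Runx3* (0.27) and *Rora* (1.71), regulators of effector T cells. Those that fell were *Gata3* (−1.09), *Foxp1* (−0.29), *Stat5a* (−0.30) and *Foxo1* (−0.15). The values of *Foxo1* and *Stat5a* were the less secure, with calls lost under library totals (−0.02 and −0.18). The call of *Foxo1* was lost under 7 of 11 alternatives in all, among them upper-quartile scaling (−0.07, adjusted p = 0.342 from edgeR) and leaving out DMSO replicate 2 (−0.17) or DMSO replicate 3 (−0.14). *Stat5a* was at −0.47 without MAPK13-IN-1 replicate 3 and −0.16 without MAPK13-IN-1 replicate 2. *Klf2* had a log2 fold change of 0.11 (0.01 without MAPK13-IN-1 replicate 3 and 0.19 without MAPK13-IN-1 replicate 2) and *Stat5b* of −0.04, and neither passed, although *Stat5b* did without MAPK13-IN-1 replicate 3 (−0.10, adjusted p = 0.0302 from edgeR).

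Surface and secreted products of follicular helper T cells, 16 genes, were mostly lower in the count table, with 10 that fell (beside 32.3% of all genes), 2 that rose and a median of −0.76. The CD4 T cell markers fell with them (6 of 7, median −1.20), and what part of the lower values is shared with those markers was not tested. In the replicate 1 pair 11 of the 16 were higher, beside 60.2% of all genes there, with a median log2 ratio of 0.30 against 0.07. *Pdcd1*, which encodes the inhibitory receptor PD-1, had 1175 and 1247 counts with DMSO and 324 and 395 with MAPK13-IN-1 (log2 fold change −2.14, adjusted p = 2.06e-07 from edgeR). *Il4*, a cytokine of helper T cells, had 240 and 229 counts with DMSO and 11 and 12 with the inhibitor (log2 fold change −4.72, adjusted p = 1.46e-07 from edgeR). The ligand *Cd40lg*, which licenses B cells, fell with −0.74, and the cytokine receptor genes *Il21r* and *Il6ra* with −0.78 and −0.69. The costimulator *Icos* rose slightly (0.21, adjusted p = 0.0102 from edgeR), a call lost without DMSO replicate 2 (0.22, adjusted p = 0.0833 from edgeR) and without DMSO replicate 3 (0.17, adjusted p = 0.18 from edgeR), and the chemokine receptor *Cxcr4* rose with 1.33. *Btla* (−0.06) and *Il6st* (−0.01) did not pass, although *Btla* did without MAPK13-IN-1 replicate 3 (−0.14, adjusted p = 0.0205 from edgeR). Of these genes *Pdcd1* went from 18.6 to 34.1 FPKM in the replicate 1 pair, opposite to the count table, and *Il4* from 28.9 to 13.1 FPKM, in the same direction.

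In the SLAM family with its adaptors, without *Slamf1* and *Sh2d1a*, which both fell, 9 of 11 genes were tested, and 2 rose and 4 fell (beside 31.5% and 32.3% of all genes), with a median of −0.04 whose sign changed with the scaling, and *Slamf8* and *Sh2d1b2*, with at most 7 counts in a library, were not tested. *Slamf6*, which encodes the receptor Ly108, had 1662 and 1811 counts with DMSO and 6292 and 5826 with the inhibitor and rose (log2 fold change 1.41, adjusted p = 5.2e-08 from edgeR), opposite to *Slamf1*. It was also higher in the replicate 1 pair, at 38.0 and 63.0 FPKM. *Cd244a* rose with 3.40 from 16 and 32 counts with DMSO to 347 and 320. *Cd84* (−0.41), *Slamf7* (−0.83), *Slamf9* (−1.02) and the kinase gene *Fyn* (−0.31), which acts with SAP, fell, and *Ly9* (−0.04) did not pass.

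Of 11 genes known to be repressed by Bcl6, 7 rose and 1 fell (beside 31.5% and 32.3% of all genes), with 5 higher without DMSO replicate 2. Of the 7, 4 (*Id2*, *Runx2*, *Runx3* and *Rora*) are the same genes that rose among the opposed factors. The list median was 0.27, and 9 of the 11 were higher in the replicate 1 pair, beside 60.2% of all genes there. *Gpr183*, a receptor that guides cells to the outer follicle, rose with a log2 fold change of 0.47 (adjusted p = 0.000372 from edgeR) and *Il7r*, the interleukin 7 receptor chain, with 0.40, a call lost without DMSO replicate 2 (0.28, adjusted p = 0.0535 from edgeR). *Selplg*, a selectin ligand, fell with −0.22, or −0.14 without MAPK13-IN-1 replicate 2, and did not pass without DMSO replicate 3 (−0.18, adjusted p = 0.147 from edgeR) or under library totals (−0.09, adjusted p = 0.234 from edgeR) and upper-quartile scaling (−0.14, adjusted p = 0.092 from edgeR). Of 7 corepressors with which Bcl6 acts, 1 rose, *Ncor1* (0.23), and 3 fell, *Hdac3* (−0.29), *Ctbp1* (−0.48) and *Ctbp2* (−1.35), with a median of −0.17. No corepressor rose when either DMSO replicate 2 or DMSO replicate 3 was left out, and the median was −0.30 without MAPK13-IN-1 replicate 3 and −0.04 under library totals.

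In both cytokine arms that set *Bcl6* against *Prdm1* more genes fell than rose in the count table. In the interleukin 2 and Stat5 arm 9 of 12 genes fell (beside 32.3% of all genes) and 1 rose, the kinase gene *Jak1* (0.59), with a median of −0.85 that lay above the −1.20 of the CD4 T cell markers. *Il2* had 1194 and 1544 counts with DMSO and 421 and 606 with MAPK13-IN-1 (log2 fold change −1.80, adjusted p = 6.18e-06 from edgeR), and *Il2ra*, the high-affinity receptor chain, had a log2 fold change of −1.27. The replicate 1 pair had *Il2* at 6.04 FPKM (DMSO) and 71.1 FPKM (inhibitor), the opposite direction, and *Il2ra* at 384 and 237 FPKM, the same. In the interleukin 6 and 21 and Stat3 arm 4 of 7 genes fell (beside 32.3% of all genes), *Il6ra*, *Il21r*, *Il27ra* (−1.81) and *Tyk2* (−0.65). In this arm 1 gene rose, *Stat3*, and the median was −0.65. The lists share genes and are not separate results. *Il6ra*, *Il21r* and *Il6st* are also among the surface and secreted genes, *Stat3* is among the follicular helper factors, and *Socs3* is in both arms. *Stat5a* and *Stat5b* are also among the opposed factors. In the replicate 1 pair 10 of the 12 and 5 of the 7 genes were higher, beside 60.2% of all genes there.

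The next list held P2X receptors other than *P2rx7*, which fell, and the proteins that release or break down ATP. Of 8 genes tested 2 rose and 3 fell (beside 31.5% and 32.3% of all genes). The median was 0.10, or −0.17 without MAPK13-IN-1 replicate 3 and −0.06 without DMSO replicate 3. *P2rx4* (−0.41), *P2rx3* (−3.07) and the ectonucleotidase gene *Nt5e* (−0.69) fell. The ATP release channel gene *Panx1* (0.46) and the ectonucleotidase gene *Entpd1* (0.35) rose. Of these rises 1 was lost with DESeq2, and the calls also varied with the library left out. *P2rx6*, at 3 to 8 counts, was not tested. Among 8 genes of follicular regulatory T cells, 5 fell and 1 rose (beside 32.3% and 31.5% of all genes), the decoy receptor gene *Il1r2* (1.38), with a median of −1.35, near that of the CD4 T cell markers (−1.20). *Foxp3*, the factor of regulatory T cells, fell with −1.44, *Ctla4* with −1.62, *Tnfrsf18* with −1.84 and *Il1rn* with −3.59. *Il2ra* (−1.27), which is also in the interleukin 2 arm, fell too. Of the 8 genes 7 were higher in the replicate 1 pair, beside 60.2% of all genes there.

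**Figure D3:**
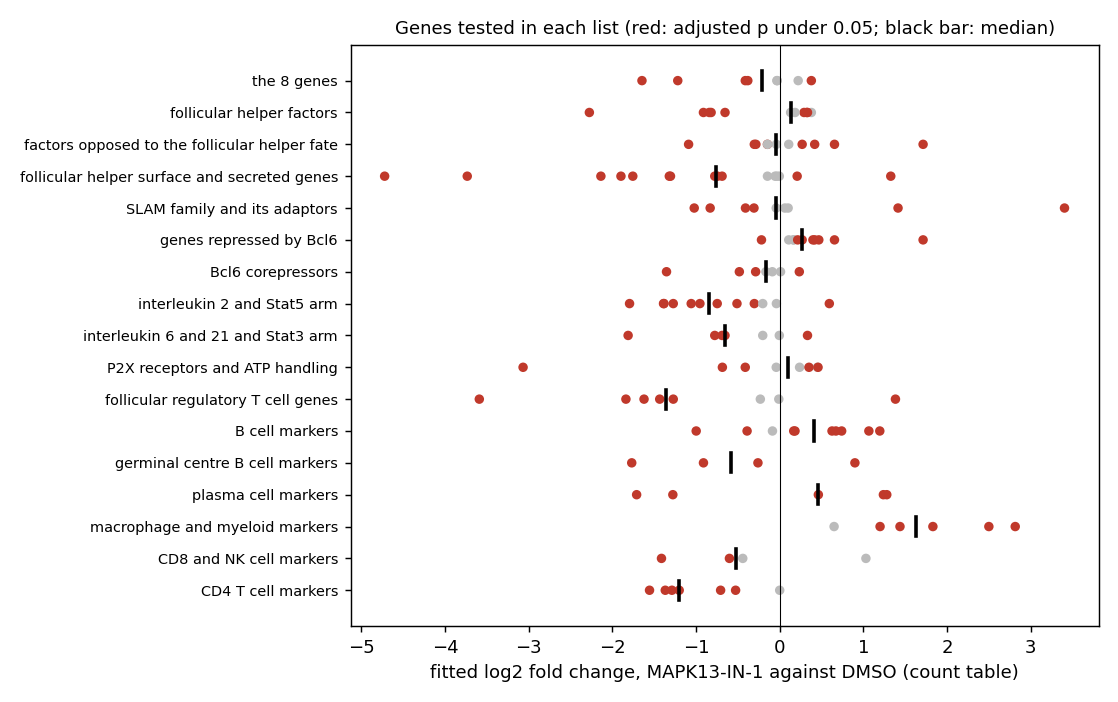
Fitted log2 fold change in the count table (x axis) of each gene tested in the 8 genes and in 16 lists (y axis). Each point is a gene, red where the adjusted p from edgeR was under 0.05, and black bars are list medians, which ran from −1.35 for follicular regulatory T cell genes to 1.63 for myeloid markers.

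For 3 of the genes the nearest patterns were sought, as the smallest Euclidean distance in centred log2 CPM over the 4 libraries of the count table. Nearest to *Bcl6* were *Mybbp1a* (distance 0.0164), *Hdac4* (0.029) and *Il6st* (0.0306), which did not pass the test. Nearest to *Prdm1* were *Rwdd1* (0.0201), *1700102P08Rik* (0.0229) and *Dcaf8* (0.0245), with log2 fold changes of 0.22, 0.20 and 0.24. Of these *1700102P08Rik* did not pass (adjusted p = 0.388 from edgeR). Nearest to *Il21* were *Mvk* (0.0267), *Ptges3-ps* (0.0375) and *Arhgap11a* (0.0414), with −0.41, −0.41 and −0.37. Here *Ptges3-ps* did not pass (adjusted p = 0.199 from edgeR). With 4 libraries, many genes share such a pattern.

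On the mouse genome mm10 (GENCODE vM21) *Bcl6* lies on chromosome 16 from 23965052 to 23988852, with 8 merged exon blocks, and *Prdm1* on chromosome 10 from 44437177 to 44528501, with 10, both on the minus strand. *Bcl6* shares 21 exon bases with another gene, *Il21* shares 469 with an antisense gene and *P2rx7* shares 119 with a microRNA gene, whereas *Prdm1*, *Slamf1* and *Ascl2* share none. Promoter windows of 300 bases around transcript starts, from RefSeq on GRCm38.p6, were given for 6 of the 8 genes, not for *Cxcr5* and *Sh2d1a*, in 8 windows. They were searched on both strands for CTTTGA (Tcf/Lef), TTCNNNGAA (Stat), TTCCTNGAA (Bcl6, each match of which is also a Stat match) and GTGAAAG (Blimp-1). Of 32851 promoters, 16.0%, 8.3%, 1.59% and 4.24% held these letters. The windows of *Bcl6* and *Prdm1* are printed because the balance of both genes was compared, 5′ to 3′ on the minus strand, with capitals for motif matches. The first *Bcl6* window starts upstream of the gene and has 50 bases in its first exon. The other *Bcl6* window lies wholly inside the gene with 0 bases in exons, so in an intron. The *Prdm1* window lies inside that gene too, with 50 bases in an exon.
*Bcl6*, chr16:23988803-23989102: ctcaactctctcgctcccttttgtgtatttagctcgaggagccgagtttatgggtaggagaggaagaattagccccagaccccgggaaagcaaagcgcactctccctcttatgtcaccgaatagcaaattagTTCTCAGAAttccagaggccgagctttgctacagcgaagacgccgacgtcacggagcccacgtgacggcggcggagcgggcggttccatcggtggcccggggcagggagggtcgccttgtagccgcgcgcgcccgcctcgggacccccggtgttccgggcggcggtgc
*Bcl6*, chr16:23981234-23981533: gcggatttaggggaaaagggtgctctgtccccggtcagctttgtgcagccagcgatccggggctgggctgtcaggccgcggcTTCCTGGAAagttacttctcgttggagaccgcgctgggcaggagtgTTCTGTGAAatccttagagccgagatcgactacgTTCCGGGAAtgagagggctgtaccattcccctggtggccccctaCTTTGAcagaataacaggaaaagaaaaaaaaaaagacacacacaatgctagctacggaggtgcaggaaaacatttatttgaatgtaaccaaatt
*Prdm1*, chr10:44458699-44458998: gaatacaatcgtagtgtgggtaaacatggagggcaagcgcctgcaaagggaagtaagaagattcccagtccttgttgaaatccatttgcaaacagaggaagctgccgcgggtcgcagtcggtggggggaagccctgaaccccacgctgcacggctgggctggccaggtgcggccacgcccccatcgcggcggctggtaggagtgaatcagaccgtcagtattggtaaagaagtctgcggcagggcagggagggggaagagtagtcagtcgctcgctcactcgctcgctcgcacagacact
The first *Bcl6* window held 1 match, TTCTCAGAA (Stat). The intronic window held 5 matches, CTTTGA, 3 Stat matches, TTCCTGGAA, TTCTGTGAA and TTCCGGGAA, and the Bcl6 letters at the first of these. No match was found in the windows of *Prdm1*, *Il21*, *Slamf1* and *Ascl2*, and 1 of the 2 windows of *P2rx7* held CTTTGA. A match describes letters in these windows and was not tested as a site.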

How the data were processed

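The count table, with 35602 genes, was deposited for replicates 2 and 3 as raw counts. The tables deposited for the replicate 1 pair hold 1 value per gene, read here as FPKM because they are not whole numbers and sum to 405150 and 390729. The submitters' processing notes name fastp 0.21.0, HISAT2 2.1.0, StringTie 2.1.5 and DESeq2 1.30.1 for the count table and FastQC and HISAT2 for the replicate 1 pair, with the build mm10. The replicate 1 libraries were made with a stranded kit. Counting options are not given in the sources used here.

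The 8 genes were matched by symbol. The members and lists were chosen with earlier results of these data known, and 3 lists (follicular helper factors, Bcl6 corepressors, and the interleukin 6 and 21 arm) each leave out 1 planned gene that is not reported here. Counts were filtered with filterByExpr (minimum count 10, minimum total 15), scaled by TMM and tested with edgeR 4.0.16 in R 4.3.3, with no covariate and Benjamini-Hochberg adjustment, after the script was tested on simulated data. Standard errors are the log2 fold change divided by the root of the F statistic. A count of 3 was taken as the floor. Ratios of the replicate 1 pair were of FPKM plus 1, and of FPKM plus 0.1 as a variant. RPKM used merged exons of GENCODE vM21, and tables were made with pandas 2.3.3 in Python 3.11.15.

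Genes named were the 8 genes, 30 companion genes given whatever their values, the most abundant gene per exon length of each marker list (by FPKM in the replicate 1 pair), every marker at or under 3 counts in all libraries of a group, and the 3 genes nearest to *Bcl6*, *Prdm1* and *Il21*. Genes sharing exon bases with the 8 genes and others marked as such were added. The alternatives were RLE, upper-quartile and library total scaling, no filter or at least 10 counts in every library, DESeq2 1.42.0, a block for the replicate number, leaving out single libraries, a threshold of 0.01, and an absolute log2 fold change over 1.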

Additional observations from a re-analysis of the deposited data

Results flagged for a closer look

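Among the 8 genes and 30 companion genes, 10 that passed the edgeR test in the count table moved one way in both of its same-numbered pairs and the opposite way in the replicate 1 pair, not counting *P2rx7*, whose ratio there (0.00207) rounds to 0. That difference was not tested, since the replicate 1 pair has 1 library per group. Its separate preparation, its unit, its other marker levels and its unlabelled dose cannot be told apart. *Il21* had a log2 ratio of 0.69 in the replicate 1 pair against a log2 fold change of −0.41 in the count table, and *Slamf1* had 0.79 against −1.22. The widest gap was that of *Il2*, with 3.36 against −1.80, followed by *Pdcd1*, with 0.84 against −2.14. *Stat5a* (0.95 against −0.30), *Selplg* (0.70 against −0.22), *Cd40lg* (0.54 against −0.74), *Il21r* (0.16 against −0.78) and *Lef1* (0.11 against −0.91) were also higher in the replicate 1 pair and lower in the count table. *Id2* was lower in the replicate 1 pair (−0.0641) and higher in the count table (0.42).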

How the results depend on the processing

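Under 11 alternative settings of scaling, filter, tool, block and left-out library, *Cxcr5*, *Il21*, *Sh2d1a* and *Slamf1* kept their direction and passed the threshold in each, and 19 of 30 companion genes stayed on their side of it with the same sign. Where values changed, the cause was not tested. With an absolute log2 fold change over 1 also asked for, 3799 of all genes and 2 of the 8 genes remained called, against 10374 and 5. The log2 fold change of *Prdm1* passed at 0.23 (RLE), 0.30 (upper quartile), 0.35 (library totals) and 0.27 (at least 10 counts in every library), and *P2rx7* no longer passed at −0.26 (library totals). Values near 0 changed sign. Under upper quartile, library totals and at least 10 counts in every library, *Bcl6* was at 0.0463, 0.0912 and 0.0107, *Ascl2* at 0.0498, 0.0945 and 0.0146, *Stat5b* at 0.0404, 0.0849 and 0.0048, *Il6st* at 0.0754, 0.12 and 0.0399, and *Ly9* at 0.0385, 0.0829 and 0.0028. *Btla* was at 0.0248 and 0.0694 under the first 2 of these, and *Il6st* also at 0.0088 (RLE) and 0.0034 (DESeq2). With each library left out in turn, which assumes that a lone library varies like the other group, the log2 fold change ran from −0.12 to 0.0323 for *Bcl6*, 0.15 to 0.28 for *Prdm1*, −0.34 to 0.22 for *Ascl2*, −0.58 to −0.21 for *P2rx7*, −0.10 to 0.014 for *Stat5b*, −0.0819 to 0.053 for *Il6st* and −0.14 to 0.0154 for *Btla*. Same-numbered libraries did not deviate together (correlation of −0.0064 across genes, which are not independent), so the numbers were not taken as pairing. With the replicate block 10645 genes were called against 10374, and *Prdm1* passed at 0.22 (adjusted p = 0.0479 from edgeR), the only call among the 8 genes that the block changed. A pseudocount of 0.1 raised the replicate 1 ratio of *Bcl6* from 0.71 to 1.02, of *Prdm1* from 0.99 to 1.14 and of *Ascl2* from 0.02 to 0.15. It changed no sign among the 8 genes. Depth limits *Ascl2* most, at 79 to 126 counts per library.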
